A study of Homo sapiens with 16 samples.

Results

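Semaphorins and their receptors were followed across 6 lines derived from SW480, a widely used human colon adenocarcinoma cell line. The genes were taken by symbol from the GENCODE annotation of hg38 as every protein-coding semaphorin of classes 3 to 7, every plexin and both neuropilins. This gave 31 genes, 20 semaphorins, 9 plexins and 2 neuropilins, of 19578 protein-coding genes and 66023 genes counted in all. Levels are given as RPM (reads per 1000000 counted), in which each count was scaled by the sample total. All 31 had a row of their own. 28 of them passed the filter on low counts when the 6 lines were tested together, and SEMA3E, SEMA5B and SEMA6D passed it in no comparison.

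RNA was sequenced from 16 samples. Parental (n = 2) was untransduced SW480, and shScrambled (n = 2) carried a non-mammalian control shRNA. The lines shAjuba1 (n = 3) and shAjuba2 (n = 3) carried an shRNA against the coding and against a non-coding stretch of AJUBA, a LIM domain adaptor of cell junctions, respectively. Ajuba OE (n = 3) carried a lentiviral construct that expressed AJUBA from a CMV promoter, and Control (n = 3) carried the same construct with the AJUBA sequence cut out. The 5 transduced lines were stable lines under puromycin selection, all cells grew in the same medium with serum, and passages ran from 10 to 18. The samples of a line are described by the study as technical replicates, so p-values measure only the spread between these samples. The construct cannot be told apart from other differences between lines.

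Semaphorins are secreted or membrane-bound ligands first known as guidance cues for growing axons. Plexins are their receptors and act on small GTPases, through which they change the cytoskeleton and cell adhesion. Most class 3 semaphorins are secreted and need a neuropilin as co-receptor beside a plexin, whereas the other classes bind plexins directly. In epithelial tumours the same molecules have been studied for their part in migration, vessel growth and invasion, and neuropilins also bind VEGF.

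Between 30132396 and 69684675 read pairs were counted per sample. AJUBA was at 93.2 ± 6.34 RPM in Control and 526 ± 56.1 RPM in Ajuba OE (SD, n = 3 each). Its level in the knockdown lines was 50.1 ± 3.12 RPM for shAjuba1 and 62.02 ± 5.93 RPM for shAjuba2 (SD, n = 3 each), and shScrambled had 82.5 ± 1.26 RPM (SD, n = 2). Log2 fold changes are given with their standard error. AJUBA fell in shAjuba1 with a log2 fold change of -0.73 ± 0.08 and an edgeR adjusted p = 2.19e-05, it rose in Ajuba OE with a log2 fold change of 2.56 ± 0.11 and an edgeR adjusted p = 7.69e-05, and in shAjuba2 it was lower in every sample without passing the test, with a log2 fold change of -0.46 ± 0.13 and an edgeR adjusted p = 0.0773. The epithelial keratins KRT8 and KRT18 were at 1487 RPM or more and 1152 RPM or more in every sample, EPCAM was between 48.3 and 242 RPM and CDX2 between 7.401 and 26.8 RPM, whereas KRT20, a marker of mature colonocytes, did not exceed 0.641 RPM. Of the markers of other cell types, DCN of fibroblasts, CDH5 of endothelium and PTPRC of leukocytes had a median of 0 RPM, where a count of 0 allows up to 3 counts or 0.0431 to 0.0996 RPM depending on the sample. Other genes of these lists were counted, with COL1A1 at 5.71 to 26.4 RPM, PDGFRB at a median of 6.17 RPM, VWF at 1.89 to 5.29 RPM and ITGAM at up to 3.975 RPM. Genes listed as markers of neurons were counted in every sample, with medians of 37.2 RPM for SYT1, 22.85 RPM for TUBB3, 6.09 RPM for SNAP25 and 0.729 RPM for RBFOX3. Replicate 2 of shAjuba2, of Control and of Ajuba OE stood apart from the other replicates of their lines, as described for the plexins.

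The sequences before the start sites of SEMA3C, SEMA3D, SEMA5A and SEMA3F are shown because much of what follows turns on these 4 ligands. Each is the 250 bases upstream of a RefSeq start (GRCh38.p14), read 5′ to 3′ on the strand of the gene, with GC boxes (GGGCGG or its complement CCGCCC) and E-boxes (CACCTG or CAGGTG) in capitals. SEMA3C lies at chr7:80922390-80922639 (minus strand), SEMA3D at chr7:85187057-85187306 (minus strand), SEMA5A at chr5:9546076-9546325 (minus strand) and SEMA3F at chr3:50154808-50155057 (plus strand).
SEMA3C: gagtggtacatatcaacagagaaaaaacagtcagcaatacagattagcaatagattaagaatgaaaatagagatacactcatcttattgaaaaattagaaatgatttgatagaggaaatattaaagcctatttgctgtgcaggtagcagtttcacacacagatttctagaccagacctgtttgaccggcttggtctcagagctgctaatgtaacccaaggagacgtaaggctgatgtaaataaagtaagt
SEMA3D: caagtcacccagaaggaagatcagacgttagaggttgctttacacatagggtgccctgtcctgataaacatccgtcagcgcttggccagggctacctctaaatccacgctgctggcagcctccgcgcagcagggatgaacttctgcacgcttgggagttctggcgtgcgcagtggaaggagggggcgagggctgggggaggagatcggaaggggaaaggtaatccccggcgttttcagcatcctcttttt
SEMA5A: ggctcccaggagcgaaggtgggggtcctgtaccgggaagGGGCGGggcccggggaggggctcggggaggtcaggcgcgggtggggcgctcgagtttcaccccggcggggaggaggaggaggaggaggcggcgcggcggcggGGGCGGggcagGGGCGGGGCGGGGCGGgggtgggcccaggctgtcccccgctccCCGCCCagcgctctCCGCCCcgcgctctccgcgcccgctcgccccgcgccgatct
SEMA3F: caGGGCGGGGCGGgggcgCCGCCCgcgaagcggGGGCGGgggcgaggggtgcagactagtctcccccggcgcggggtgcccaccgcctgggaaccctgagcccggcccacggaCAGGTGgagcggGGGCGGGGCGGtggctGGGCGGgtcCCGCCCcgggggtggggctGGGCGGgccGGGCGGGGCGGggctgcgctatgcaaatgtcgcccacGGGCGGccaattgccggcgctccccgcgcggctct

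The stretch before SEMA3C had a GC content of 36.4% and that before SEMA3D 57.6%, and neither held one of the motifs, although another RefSeq start of SEMA3C had a GC content of 77.6% and 3 GC boxes. The stretches before SEMA5A and SEMA3F had a GC content of 82% each, with 7 and 12 GC boxes, and that of SEMA3F held 1 E-box. RefSeq starts were used for 27 of the 31 genes, 48 in all, and not for SEMA3A, SEMA6A, SEMA6B and NRP1. A GC box was found at 30 of these 48 starts and at 42.6% of 35116 starts of all genes, and the median GC content was 64.8% at the former and 58% at all starts. CACCTG, the E-box read by Snail factors, was found at 6 of 48 and at 17.5% of all starts. CATTCC, the core read by TEAD factors, was searched on both strands too and was found at 6 of 48 and at 11.9% of all starts, but before none of the 4 starts printed. Another RefSeq start of SEMA3F, which is not printed, had 1 such core before it. A match of letters says nothing about binding in these cells.

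Per kilobase of exon the plexins led the family. PLXNB2 had a median of 36.7 RPKM over the 16 samples, PLXNB1 25.7, PLXNA1 25.2 and PLXNA3 18.8, followed by SEMA3B with 17.1 as the highest semaphorin. SEMA4C, PLXNB3, NRP1, PLXND1 and SEMA6B had medians between 7.88 and 9.94 RPKM. SEMA4F, SEMA4D, NRP2, SEMA7A, SEMA4B, SEMA5A, SEMA4G, SEMA3A and SEMA6C lay between 1.02 and 3.38 RPKM. A further 5, SEMA3G, PLXNC1, SEMA3F, SEMA6A and SEMA4A, had medians between 0.202 and 0.585 RPKM. SEMA3C, SEMA3D, PLXNA2 and PLXNA4 had medians between 0.0164 and 0.0533 RPKM, and the first 3 of these were among those that changed most between lines.

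**Figure D1:**
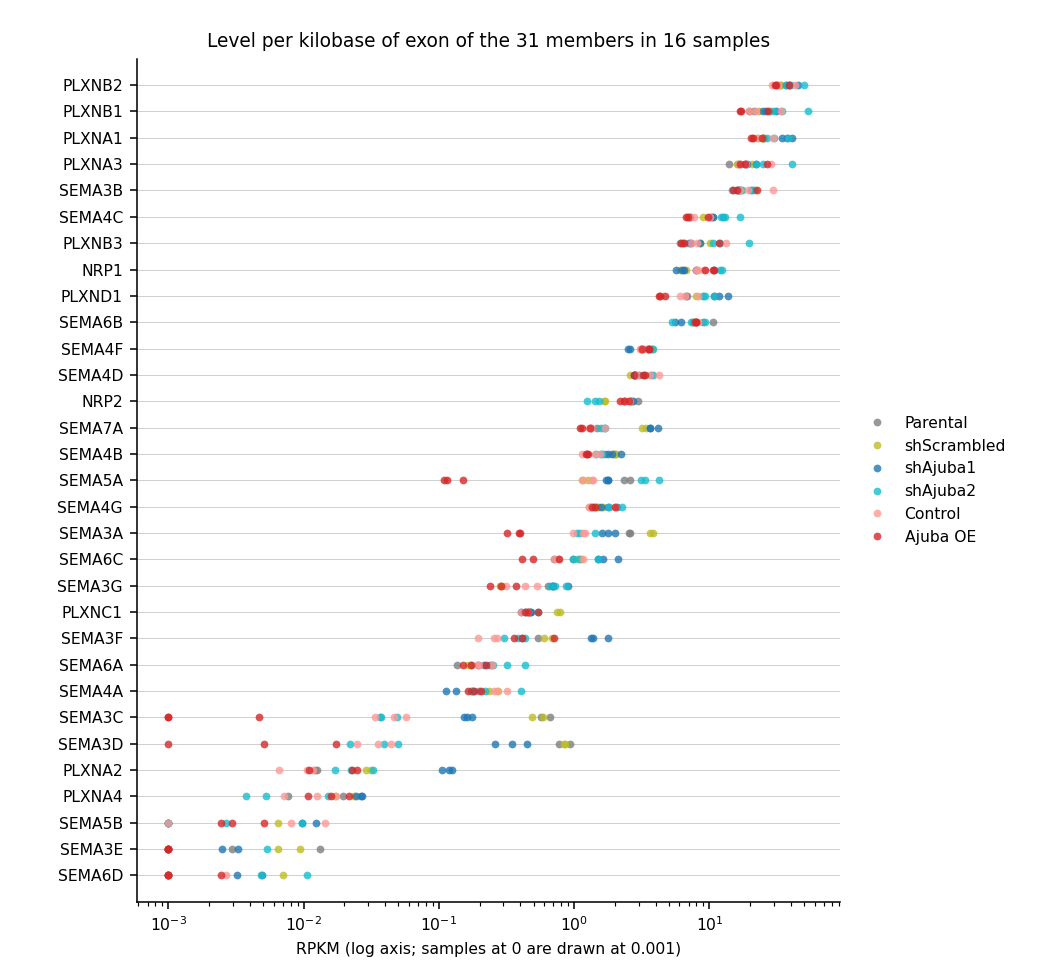
RPKM (log axis, samples at 0 drawn at 0.001) of the 31 genes, 1 point per sample coloured by line and genes ordered by their median. PLXNB2, PLXNB1, PLXNA1 and PLXNA3 lead at the median, while SEMA5A, SEMA3A, SEMA3C and SEMA3D spread widely, with the Ajuba OE samples at their low ends.

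SEMA3E, SEMA5B and SEMA6D were close to absent. SEMA3E, a ligand of PLXND1, had at most 6 counts in a sample and none in any Control or Ajuba OE sample. SEMA5B had at most 6 counts and SEMA6D at most 4. No difference between lines could be measured for them at this depth.

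Shares of differentially expressed genes (DEG, edgeR adjusted p under 0.05 over all genes tested) were taken in 3 comparisons with the own control. In shAjuba1, 15 of 28 tested were DEG (53.6%), 8 higher and 7 lower, where 38.4% of all genes tested were DEG, 18.2% higher and 20.2% lower. In shAjuba2, 8 of 28 were DEG (28.6%), 3 higher and 5 lower, where the background was 7.63%, with 3.19% higher and 4.44% lower. In Ajuba OE, 3 of 25 were DEG, all lower, where 5.43% of all genes were DEG, 2.39% higher and 3.03% lower. The median log2 fold change of the genes tested was -0.08 in Ajuba OE, 0.08 in shAjuba1 and 0.03 in shAjuba2, against -0.01, -0.01 and -0.01 over all genes. Both knockdown comparisons used the same 2 shScrambled samples. SEMA3A, SEMA3C, SEMA3D, SEMA3G, SEMA5A and PLXNC1 were DEG in both of them and in the same direction, and SEMA3A and SEMA5A were also DEG in Ajuba OE. The share of all genes that were DEG in both knockdown comparisons was not computed.

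**Figure D2:**
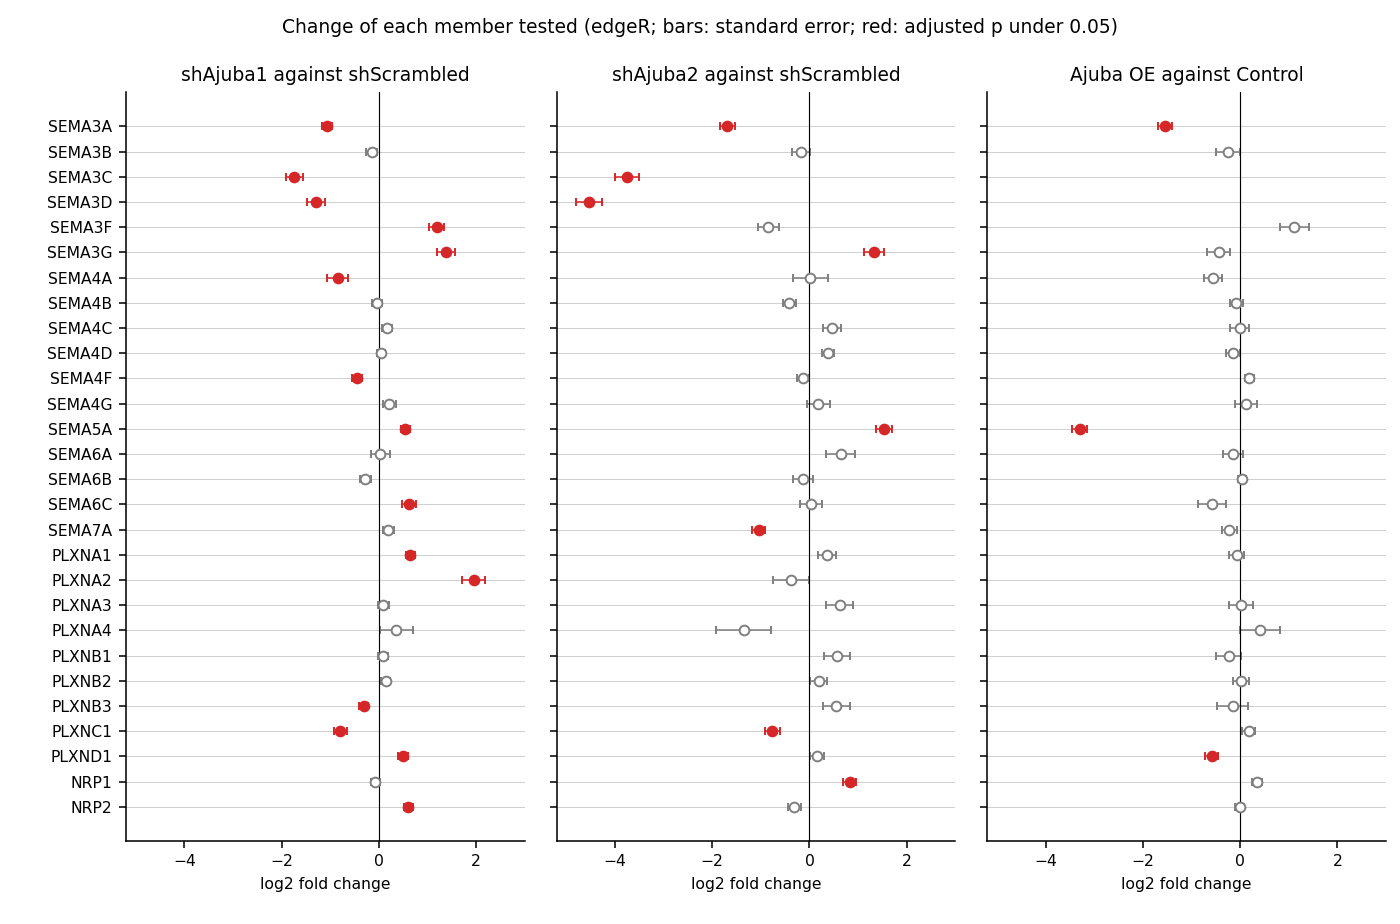
log2 fold change (x axis) of each gene tested in the 3 comparisons with the own control, with bars for the standard error and filled red points for DEG. SEMA3A was lower in all 3 panels, SEMA3C and SEMA3D were far lower in shAjuba2, and SEMA5A was higher in both knockdown lines and lower in Ajuba OE.

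The count in shAjuba2 changed when single libraries were left out. Without shScrambled replicate 1 or replicate 2 it was 4 and 3 of 28, and without shAjuba2 replicate 2 it was 13 of 28, while the number of DEG over all genes went from 1713 to 223, 182 and 4983. SEMA3G, SEMA7A, PLXNC1 and NRP1 lost their call in shAjuba2 without either shScrambled sample, and SEMA5A lost it without shScrambled replicate 2. Such fits leave a single shScrambled sample and gave fewer DEG over all genes too, so a call lost there does not single out a gene. With Parental in place of the own control, 18 of 28 genes of the family and 8056 of 21150 genes were DEG in shAjuba1. The same control gave 6 of 28 and 1800 of 22111 for shAjuba2, and 6 of 28 and 1538 of 21521 for Ajuba OE.

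The secreted class 3 ligands on chromosome 7 showed the steepest differences. SEMA3A (chr7:83955777-84492724), the classic repellent of axons that acts through NRP1 and A-type plexins, was lower in both knockdown lines than in either Parental or shScrambled and lowest of all in Ajuba OE. SEMA3A was counted at 23.5 and 23.9 RPM in Parental, 11.2, 9.14 and 10.7 in Control, 3.59, 2.96 and 3.67 in Ajuba OE, 35.3 and 33.5 in shScrambled, 16.5, 18.6 and 14.96 in shAjuba1 and 13.2, 9.78 and 10.2 in shAjuba2. The samples of shAjuba1, shAjuba2 and Control all lay under those of Parental and shScrambled, and the Ajuba OE samples lay under all others. SEMA3A fell in shAjuba1 with a log2 fold change of -1.06 ± 0.11 and an edgeR adjusted p = 8.23e-06, in shAjuba2 with a log2 fold change of -1.69 ± 0.15 and an edgeR adjusted p = 0.00144, and in Ajuba OE with a log2 fold change of -1.54 ± 0.14 and an edgeR adjusted p = 0.00109. These 3 calls held under every alternative run for them, with Parental as the control included.

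SEMA3C (chr7:80742538-80922359) and SEMA3D (chr7:84995553-85187056), secreted ligands that also signal through neuropilins, were all but lost in 3 of the lines. SEMA3C measured 4.06 and 3.49 RPM in Parental, 0.349, 0.286 and 0.205 in Control, 0.0287, 0 and 0 in Ajuba OE, 2.99 and 3.598 in shScrambled, 0.984, 0.929 and 1.08 in shAjuba1 and 0.301, 0.225 and 0.226 in shAjuba2. SEMA3D reached 7.73 and 6.401 RPM in Parental, 0.291, 0.204 and 0.364 in Control, 0.143, 0.0417 and 0 in Ajuba OE, 6.88 and 7.06 in shScrambled, 2.85, 3.72 and 2.15 in shAjuba1 and 0.323, 0.1802 and 0.412 in shAjuba2. Parental and shScrambled overlapped for both genes, shAjuba1 was intermediate, and shAjuba2 and Control lay side by side at no more than 0.412 RPM. SEMA3C fell in shAjuba1 with a log2 fold change of -1.74 ± 0.18 and an edgeR adjusted p = 8.15e-06, and in shAjuba2 with a log2 fold change of -3.75 ± 0.24 and an edgeR adjusted p = 0.000596. SEMA3D fell in shAjuba1 with a log2 fold change of -1.29 ± 0.18 and an edgeR adjusted p = 0.000113, and in shAjuba2 with a log2 fold change of -4.54 ± 0.26 and an edgeR adjusted p = 0.000417. Both also differed between Control and Parental, by -3.75 ± 0.24 (edgeR adjusted p = 0.00201) and -4.61 ± 0.23 (edgeR adjusted p = 0.00117) on the log2 scale. Control carried the overexpression construct without the AJUBA sequence, and what set it apart from Parental was not tested.

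Neither gene passed the filter in Ajuba OE against Control. SEMA3C had 2 counts in all 3 Ajuba OE samples together and 35 in Control, a ratio of RPM of 0.0462 with an exact 95% interval from 0.00538 to 0.180. SEMA3D had 12 counts against 36, a ratio of 0.269 with an interval from 0.128 to 0.530. These intervals cover counting error only. In such bulk samples, fewer cells that express a gene and less RNA per cell cannot be told apart.

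Genes beside these ligands were looked up after the values were known. The stretch of chromosome 7 between GNAI1 and GRM3 holds 11 protein-coding genes that were counted, of which 6 reached a line mean of 1 RPM. In 4 of those 6, SEMA3C, CACNA2D1, SEMA3A and SEMA3D, the means of shAjuba1, shAjuba2, Control and Ajuba OE all lay under those of Parental and shScrambled. The low semaphorins had led to the look-up, so only CACNA2D1 adds to them, while PCLO and GNAI1 lacked the pattern. Its share over all genes was not computed. Around SEMA5A on chromosome 5, 2 of 9 genes that reached 1 RPM had it too, ATPSCKMT and DAP. CACNA2D1 (chr7:81946444-82443956), a subunit of calcium channels between SEMA3C and SEMA3E, had means of 1.08 and 1.82 RPM in Parental and shScrambled, 0.598 and 0.179 in the knockdown lines shAjuba1 and shAjuba2, and 0.146 and 0.0132 in Control and Ajuba OE. PCLO, which lies between CACNA2D1 and SEMA3A, fell in shAjuba1 with a log2 fold change of -0.98 ± 0.10 and an edgeR adjusted p = 7.36e-06, but was not lower in Control and Ajuba OE. Its means were 26.1 RPM in Parental and 20.1 in shScrambled, 10.3 and 14.8 in shAjuba1 and shAjuba2, and 27.4 and 30.3 in Control and Ajuba OE. GNAI1, the expressed gene before CD36, had means of 43.2 RPM in Parental and 20.2 in shScrambled, 19.7 and 32.7 in shAjuba1 and shAjuba2, and 31.3 and 14.4 in Control and Ajuba OE. It fell in Ajuba OE with a log2 fold change of -1.05 ± 0.16 and an edgeR adjusted p = 0.00962 and passed the test in neither knockdown line.

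**Figure D3:**
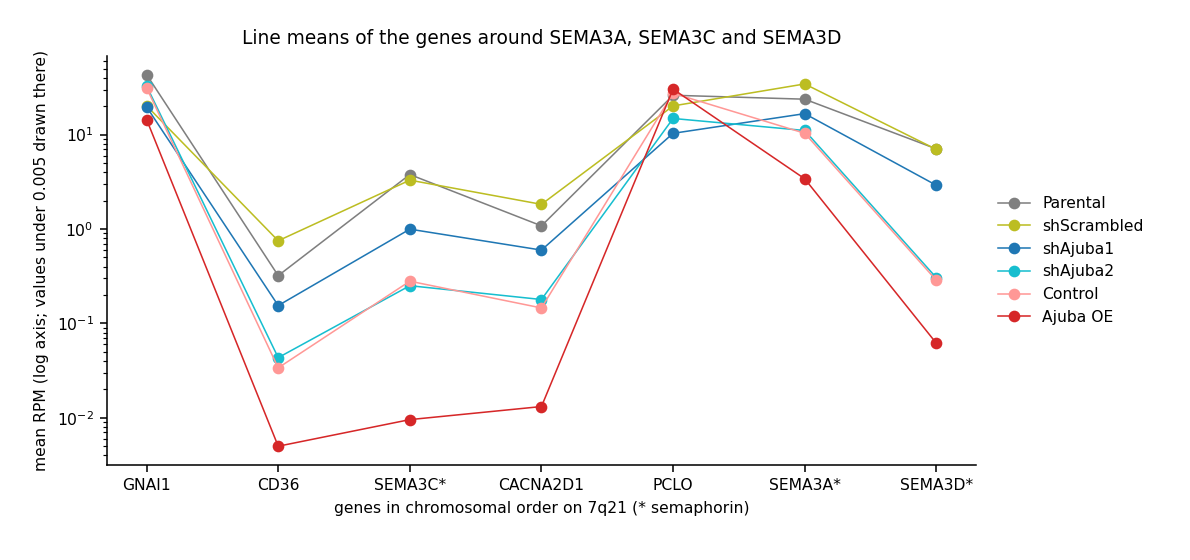
Mean RPM per line (log axis, values under 0.005 drawn there) of 7 genes in their order on chromosome 7, with semaphorins starred and lines joining the genes only to guide the eye. CD36, SEMA3C, CACNA2D1 and SEMA3D fall in the order Parental or shScrambled, shAjuba1, shAjuba2 or Control, and Ajuba OE, while PCLO stays between 10.3 and 30.3 RPM.

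SEMA3F (chr3:50155045-50189075), a secreted ligand of NRP2, went up in shAjuba1. SEMA3F came to 2.62 and 1.997 RPM in Parental, 1.22, 1.31 and 0.933 in Control, 1.995, 3.44 and 1.74 in Ajuba OE, 2.91 and 3.32 in shScrambled, 6.41, 6.604 and 8.64 in shAjuba1 and 1.85, 2.07 and 1.46 in shAjuba2. The shAjuba1 samples lay above all others, with a log2 fold change of 1.19 ± 0.16 and an edgeR adjusted p = 7.94e-05. In shAjuba2 it was lower than in shScrambled without passing the test, with a log2 fold change of -0.85 ± 0.21 and an edgeR adjusted p = 0.0546. This value passed under 5 of 12 alternatives, with every gene, with DESeq2, with all 16 samples in 1 fit, with the replicate number as a block and without shAjuba2 replicate 2, where the adjusted p was lowest at 0.00219. The 2 shRNA lines differed by 2.05 ± 0.19 on the log2 scale (edgeR adjusted p = 0.000139). All 3 Ajuba OE samples lay above the Control samples, with a log2 fold change of 1.12 ± 0.31 and an edgeR adjusted p = 0.0909. It passed with every gene, with DESeq2, with all 16 samples in 1 fit and with the block, with adjusted p from 0.00208 to 0.0161 over these. It did not pass under the other 10 of 14 alternatives. Over all 14 the log2 fold change ran from 0.108 to 1.29, with adjusted p up to 0.895. The Parental samples lay within the range of the Ajuba OE samples, and the Control samples lay below those of every other line. The antisense gene SEMA3F-AS1 shares 110 exonic bases with SEMA3F and its median count was 163.5 against 105.5. SEMA3F-AS1 gave a log2 fold change of -0.01 ± 0.13 in shAjuba1 with an edgeR adjusted p = 0.969. How reads in the shared bases were assigned was not tested.

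Among the other class 3 ligands, SEMA3G rose in both knockdown lines. SEMA3G was counted at 3.52 and 3.21 RPM in Parental, 1.57, 2.69 and 2.19 in Control, 1.87, 1.46 and 1.21 in Ajuba OE, 1.48 and 1.43 in shScrambled, 3.45, 3.52 and 4.55 in shAjuba1 and 4.36, 3.33 and 3.64 in shAjuba2. It rose with a log2 fold change of 1.38 ± 0.18 and an edgeR adjusted p = 6.60e-05 in shAjuba1 and with a log2 fold change of 1.33 ± 0.20 and an edgeR adjusted p = 0.00985 in shAjuba2. The shScrambled samples lay at the low end together with replicates 2 and 3 of Ajuba OE, and against Parental neither knockdown line passed the test. SEMA3B, the most abundant semaphorin, did not pass the test against any own control. SEMA3B measured 92.1 and 97.2 RPM in Parental, 97.7, 172 and 112 in Control, 85.4, 129.6 and 91.5 in Ajuba OE, 99.2 and 124 in shScrambled, 95.3, 93.9 and 118 in shAjuba1 and 100.2, 120.1 and 85.2 in shAjuba2. Its highest sample in shAjuba2, Control and Ajuba OE was replicate 2 each time.

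Class 4 semaphorins span the membrane and bind B-type plexins and PLXND1. SEMA4A and SEMA4F were the only DEG of this class, both lower in shAjuba1, while SEMA4B, SEMA4C, SEMA4D and SEMA4G passed the test against no own control. SEMA4A reached 1.17 and 1.34 RPM in Parental, 1.81, 2.16 and 1.73 in Control, 1.22, 1.396 and 1.11 in Ajuba OE, 1.86 and 1.59 in shScrambled, 0.9002, 0.763 and 1.21 in shAjuba1 and 1.48, 2.73 and 1.19 in shAjuba2. SEMA4F came to 22.04 and 23.5 RPM in Parental, 19.3, 20.6 and 19.2 in Control, 22.4, 22.1 and 19.8 in Ajuba OE, 22.7 and 23.3 in shScrambled, 16.2, 15.6 and 19.4 in shAjuba1 and 23.9, 21.6 and 19.6 in shAjuba2. SEMA4A fell in shAjuba1 with a log2 fold change of -0.85 ± 0.22 and an edgeR adjusted p = 0.00835, and SEMA4F with a log2 fold change of -0.45 ± 0.11 and an edgeR adjusted p = 0.00532. The shAjuba1 samples of SEMA4F lay under all Parental and shScrambled samples, but 1 of them reached the Control range, and both calls were lost without shScrambled replicate 1. That of SEMA4F was also lost without shScrambled replicate 2, and that of SEMA4A with DESeq2, with all 16 samples in 1 fit and with Parental as the control, with adjusted p up to 0.16.

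SEMA4D is the main ligand of PLXNB1 and SEMA4C a ligand of PLXNB2. SEMA4D was counted at 40.8 and 42.6 RPM in Parental, 41.2, 59.8 and 51.5 in Control, 47.1, 45.5 and 39.2 in Ajuba OE, 36.9 and 39.02 in shScrambled, 39.7, 39.4 and 39.7 in shAjuba1 and 52.2, 54.4 and 46.4 in shAjuba2. SEMA4C measured 45.2 and 44.8 RPM in Parental, 43.1, 63.6 and 48.3 in Control, 43.2, 60.9 and 42.3 in Ajuba OE, 56.3 and 66.5 in shScrambled, 66.7, 64.6 and 78.7 in shAjuba1 and 81.6, 106 and 75.6 in shAjuba2. SEMA4C had its highest line mean in shAjuba2, at 87.8 ± 16.2 RPM (SD, n = 3). SEMA4B reached 11.8 and 14.02 RPM in Parental, 8.04, 10.8 and 9.97 in Control, 8.77, 8.501 and 8.83 in Ajuba OE, 13.8 and 14.2 in shScrambled, 13.4, 12.4 and 15.5 in shAjuba1 and 11.2, 11.1 and 10.2 in shAjuba2. SEMA4G came to 7.93 and 7.41 RPM in Parental, 6.82, 10.6 and 6.85 in Control, 7.13, 10.5 and 7.54 in Ajuba OE, 7.68 and 8.63 in shScrambled, 9.36, 8.36 and 11.01 in shAjuba1 and 9.55, 12.03 and 7.10 in shAjuba2. SEMA4G shares 1215 exonic bases with MRPL43 on the other strand (22.9% of its exons), so its count is uncertain where counting ignored strand.

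SEMA5A (chr5:9035033-9546075), a membrane ligand with thrombospondin repeats that binds PLXNB3, changed most in Ajuba OE. SEMA5A was counted at 28.9 and 31.6 RPM in Parental, 16.9, 14.2 and 16.5 in Control, 1.85, 1.33 and 1.41 in Ajuba OE, 15.4 and 13.9 in shScrambled, 22.0, 21.01 and 21.9 in shAjuba1 and 52.2, 38.3 and 41.1 in shAjuba2. The Ajuba OE samples were the lowest of all 16 and the shAjuba2 samples the highest. SEMA5A fell in Ajuba OE with a log2 fold change of -3.30 ± 0.16 and an edgeR adjusted p = 8.31e-05. It rose in shAjuba2 with a log2 fold change of 1.53 ± 0.16 and an edgeR adjusted p = 0.00272 and in shAjuba1 with a log2 fold change of 0.55 ± 0.10 and an edgeR adjusted p = 0.0009102. However, the shScrambled samples were themselves under those of Parental, and the shAjuba1 samples lay between both. With Parental as the control the value in shAjuba1 turned to -0.51 (edgeR adjusted p = 0.00107), and the call in shAjuba2 was lost there and without shScrambled replicate 2. Genes on either side of it on chromosome 5 were looked up after the values were known. The nearest expressed ones did not pass the test in Ajuba OE, where MTRR had a mean of 64.8 RPM in Control and 71.4 in Ajuba OE, and ATPSCKMT 28.1 and 27.98. ANKRD33B, further along the same stretch, changed in the same direction as SEMA5A in all 3 comparisons. Its means were 2.43 RPM in Parental and 3.87 in shScrambled, 10.98 and 8.85 in shAjuba1 and shAjuba2, and 2.53 and 0.743 in Control and Ajuba OE. It fell in Ajuba OE with a log2 fold change of -1.72 ± 0.25 and an edgeR adjusted p = 0.00911 and rose in shAjuba1 with a log2 fold change of 1.49 ± 0.12 and an edgeR adjusted p = 1.19e-06 and in shAjuba2 with a log2 fold change of 1.15 ± 0.16 and an edgeR adjusted p = 0.00771. The fibroblast markers COL1A1, COL1A2, COL3A1, PDGFRB and DCN summed to 6.21 to 10.4 RPM in Ajuba OE and to 15.5 to 24.6 RPM in Control, with DCN at 0 in 15 of 16 samples, and their part in this difference was not tested.

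Class 6 semaphorins are membrane ligands of A-type plexins. SEMA6C rose in shAjuba1, and SEMA6A and SEMA6B passed the test against no own control. SEMA6C measured 5.61 and 4.11 RPM in Parental, 4.08, 6.71 and 4.42 in Control, 2.88, 4.48 and 2.39 in Ajuba OE, 6.42 and 6.54 in shScrambled, 9.42, 8.695 and 12.2 in shAjuba1 and 6.17, 8.695 and 5.64 in shAjuba2. SEMA6B reached 42.5 and 50.1 RPM in Parental, 37.4, 38.7 and 37.3 in Control, 36.98, 37.3 and 37.4 in Ajuba OE, 35.5 and 36.9 in shScrambled, 28.9, 26.1 and 35.5 in shAjuba1 and 43.8, 24.8 and 34.1 in shAjuba2. For SEMA6C the shAjuba1 samples lay at or above all others, where shAjuba2 replicate 2 tied with the lowest of them, and the test gave a log2 fold change of 0.63 ± 0.14 and an edgeR adjusted p = 0.003904. The call was lost when all 16 samples were fitted together (edgeR adjusted p = 0.115). SEMA6A ranged from 1.49 to 4.71 RPM over the 16 samples.

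SEMA7A is anchored to the membrane by a lipid and binds PLXNC1 and integrins. SEMA7A came to 5.63 and 5.09 RPM in Parental, 4.86, 6.43 and 5.08 in Control, 4.19, 4.33 and 4.95 in Ajuba OE, 11.99 and 12.96 in shScrambled, 13.7, 13.9 and 15.8 in shAjuba1 and 6.02, 6.397 and 6.32 in shAjuba2. The shScrambled and shAjuba1 samples lay above all others, and those of shAjuba2 lay with Parental and Control. Accordingly SEMA7A fell in shAjuba2 against shScrambled with a log2 fold change of -1.05 ± 0.14 and an edgeR adjusted p = 0.006101 and did not pass the test in shAjuba1, with a log2 fold change of 0.20 ± 0.11 and an edgeR adjusted p = 0.165. Against Parental the shAjuba2 value was 0.16 (edgeR adjusted p = 0.463).

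**Figure D4:**
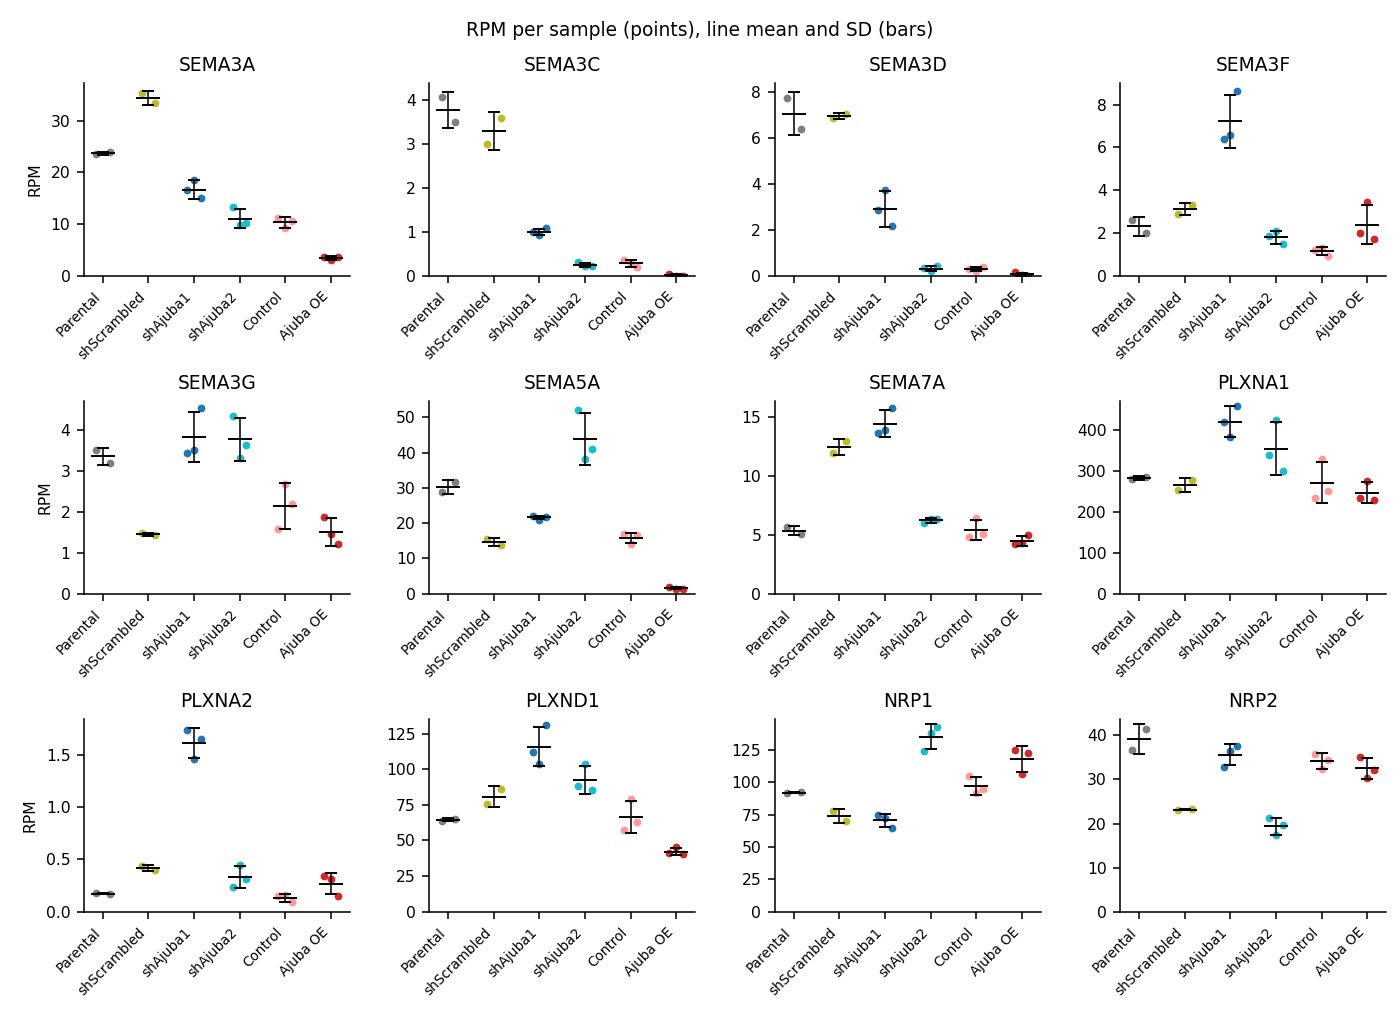
RPM of 12 ligands and receptors, with 1 point per sample in 6 lines and bars for the line mean and SD (n = 2 or 3). SEMA3F, PLXNA2 and PLXND1 are highest in shAjuba1, NRP1 and SEMA5A are highest in shAjuba2, and SEMA3C and SEMA3D do not exceed 0.412 RPM in shAjuba2, Control and Ajuba OE.

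A-type plexins pair with neuropilins as receptors of class 3 ligands and also bind class 6 ligands. PLXNA1 and PLXNA2 rose in shAjuba1, while PLXNA3 and PLXNA4 passed the test against no own control. PLXNA1 was counted at 280.1 and 286 RPM in Parental, 235, 329 and 252 in Control, 235, 276 and 229.8 in Ajuba OE, 255 and 279 in shScrambled, 420.3, 384 and 459.8 in shAjuba1 and 339, 426 and 301 in shAjuba2. PLXNA2 measured 0.174 and 0.168 RPM in Parental, 0.146, 0.163 and 0.0911 in Control, 0.344, 0.312 and 0.151 in Ajuba OE, 0.439 and 0.398 in shScrambled, 1.74, 1.46 and 1.66 in shAjuba1 and 0.236, 0.451 and 0.309 in shAjuba2. PLXNA1 rose with a log2 fold change of 0.64 ± 0.09 and an edgeR adjusted p = 0.000166, and the low PLXNA2 rose with a log2 fold change of 1.95 ± 0.24 and an edgeR adjusted p = 3.71e-05. Both calls held under every alternative run. For PLXNA2 the shAjuba1 samples had 44 to 83 counts and every other sample had at most 24. In shAjuba2 the tests gave a log2 fold change of 0.37 ± 0.18 and an edgeR adjusted p = 0.2503 for PLXNA1 and a log2 fold change of -0.38 ± 0.37 and an edgeR adjusted p = 0.562 for PLXNA2.

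PLXNA3 reached 189 and 163 RPM in Parental, 193, 336 and 218 in Control, 213, 312 and 196 in Ajuba OE, 188 and 243 in shScrambled, 222, 213 and 259 in shAjuba1 and 290.2, 475 and 258 in shAjuba2. Replicate 2 was the highest sample of shAjuba2, of Control and of Ajuba OE. PLXNA4 ranged from 0.0617 to 0.442 RPM (3 to 19 counts). It differed between the 2 shRNA lines, by 1.73 ± 0.45 on the log2 scale (edgeR adjusted p = 0.0257), and the call was lost without any 1 shAjuba1 sample and without shAjuba2 replicate 1 or 3, with adjusted p up to 0.104.

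B-type plexins are receptors of class 4 ligands and of SEMA5A, and they associate with the receptor kinases MET and ERBB2. PLXNB1 and PLXNB2 passed the test against no own control, and PLXNB3 fell in shAjuba1. PLXNB1 came to 208 and 191 RPM in Parental, 193, 328 and 216 in Control, 165, 264 and 166 in Ajuba OE, 227 and 275 in shScrambled, 256, 245 and 303 in shAjuba1 and 337, 523 and 286 in shAjuba2. PLXNB2 was counted at 228 and 241 RPM in Parental, 209, 309.8 and 235 in Control, 226, 280.1 and 223 in Ajuba OE, 245 and 279.9 in shScrambled, 281, 266 and 330.0 in shAjuba1 and 292, 364 and 268 in shAjuba2. PLXNB3 measured 44.7 and 42.5 RPM in Parental, 51.2, 92.4 and 56.7 in Control, 45.2, 82.8 and 42.9 in Ajuba OE, 60.1 and 70.7 in shScrambled, 50.7, 49.6 and 59.4 in shAjuba1 and 83.4, 138 and 74.5 in shAjuba2. Again replicate 2 of shAjuba2, Control and Ajuba OE lay above its line for all 3 genes. PLXNB3 fell in shAjuba1 with a log2 fold change of -0.31 ± 0.10 and an edgeR adjusted p = 0.0258, but its shAjuba1 samples lay between Parental and shScrambled and against Parental the value was 0.26 (edgeR adjusted p = 0.0456). The call was also lost with all 16 samples in 1 fit, without shScrambled replicate 2 and without shAjuba1 replicate 1 or 2, with adjusted p up to 0.556. PLXNB3 also shares 1432 exonic bases with SRPK3 on the same strand, and SRPK3 gave a log2 fold change of 0.37 ± 0.13 in shAjuba1.

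Over the 15 genes of the family with at least 5 RPM in every sample, replicate 2 was the highest sample of all 3 of these lines for 9 (60%), SEMA3B, SEMA4C, SEMA4G, PLXNA1, PLXNA3, PLXNB1, PLXNB2, PLXNB3 and PLXND1, where it was so for 21.2% of 10675 genes. SEMA6B was lowest in shAjuba2 replicate 2, and NRP2 was lowest in replicate 2 of all 3 lines. What set this replicate apart was not tested. When these 3 libraries were left out together, a choice made after the values were seen, 25 of the 28 genes differed among the 6 lines, where 14203 genes of all did. With all 16 samples it was 19 of 28 genes of the family and 10773 of 23597 genes of all. The number of all genes tested without the 3 libraries is not given here, so the 25 do not tell the family from all genes.

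**Figure D5:**
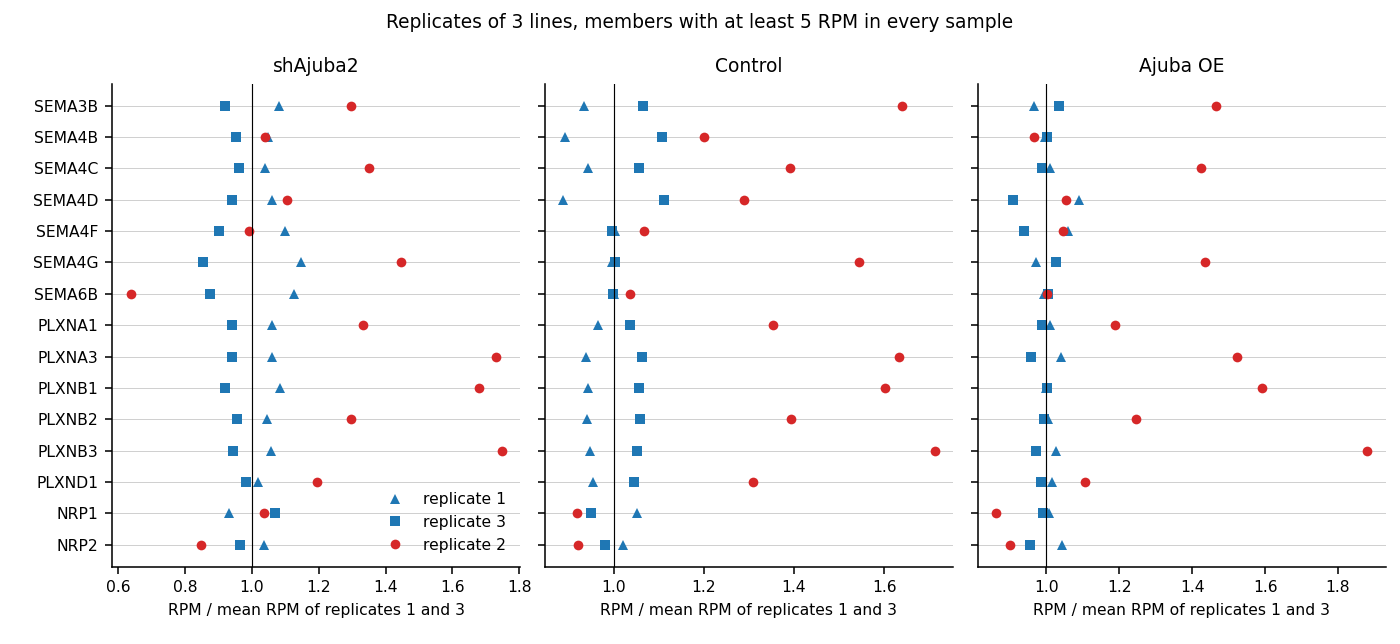
RPM of each replicate divided by the mean of replicates 1 and 3 of its line (x axis) for the 15 genes with at least 5 RPM in every sample, with replicate 2 in red. PLXNA3, PLXNB1 and PLXNB3 lie above 1.5 in replicate 2 of all 3 lines, whereas NRP2 lies under 1.

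PLXNC1, the receptor of SEMA7A, fell in both knockdown lines against shScrambled. PLXNC1 reached 4.54 and 4.703 RPM in Parental, 4.05, 4.55 and 4.599 in Control, 4.33, 4.56 and 5.38 in Ajuba OE, 7.54 and 7.91 in shScrambled, 4.69, 4.84 and 4.03 in shAjuba1 and 5.396, 4.35 and 4.38 in shAjuba2. It fell with a log2 fold change of -0.79 ± 0.13 and an edgeR adjusted p = 0.000374 in shAjuba1 and with a log2 fold change of -0.76 ± 0.16 and an edgeR adjusted p = 0.0299 in shAjuba2. The 2 shScrambled samples lay above all others, and the shAjuba1 and shAjuba2 samples shared the range of Parental, Control and Ajuba OE. Against Parental the values were -0.06 in shAjuba1 and -0.04 in shAjuba2, and neither passed the test. The call in shAjuba2 was also lost without either shScrambled sample and without shAjuba2 replicate 1 or 3.

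PLXND1 is the receptor of SEMA3E and a regulator of vessel patterning. PLXND1 came to 63.96 and 65.2 RPM in Parental, 57.5, 78.7 and 62.9 in Control, 41.4, 45.05 and 40.1 in Ajuba OE, 75.7 and 85.9 in shScrambled, 112, 104 and 131 in shAjuba1 and 88.5, 104 and 85.4 in shAjuba2. The shAjuba1 samples lay above all others, with the lowest of them just above shAjuba2 replicate 2, and the Ajuba OE samples lay below all others. PLXND1 rose in shAjuba1 with a log2 fold change of 0.50 ± 0.10 and an edgeR adjusted p = 0.00177 and fell in Ajuba OE with a log2 fold change of -0.59 ± 0.13 and an edgeR adjusted p = 0.0495. The latter call was lost when any 1 of the 6 samples was left out, with adjusted p up to 0.198 over the alternatives.

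Neuropilins split between the knockdown lines. NRP1, the co-receptor of SEMA3A and of VEGFA, was higher in shAjuba2, and NRP2, the co-receptor of SEMA3F and SEMA3G, was higher in shAjuba1. NRP1 was counted at 91.6 and 92.3 RPM in Parental, 105, 91.9 and 94.9 in Control, 125, 107 and 123 in Ajuba OE, 77.5 and 70.02 in shScrambled, 74.8, 72.5 and 65.1 in shAjuba1 and 124, 138 and 143 in shAjuba2. NRP2 measured 36.8 and 41.5 RPM in Parental, 35.9, 32.4 and 34.5 in Control, 35.1, 30.3 and 32.2 in Ajuba OE, 23.1 and 23.3 in shScrambled, 32.9, 36.4 and 37.6 in shAjuba1 and 21.2, 17.3 and 19.6 in shAjuba2. For NRP1 the shAjuba2 samples overlapped only those of Ajuba OE, and all 3 Ajuba OE samples lay above the Control samples. NRP1 rose in shAjuba2 with a log2 fold change of 0.83 ± 0.13 and an edgeR adjusted p = 0.0125, and Ajuba OE gave a log2 fold change of 0.34 ± 0.10 and an edgeR adjusted p = 0.109, which passed with all 16 samples in 1 fit (edgeR adjusted p = 0.026) and with the replicate block (edgeR adjusted p = 0.0018). NRP1 in shAjuba1 gave a log2 fold change of -0.07 ± 0.09 and an edgeR adjusted p = 0.575, but against Parental it was lower, at -0.41 (edgeR adjusted p = 0.00336). The call in shAjuba2 was lost without either shScrambled sample and with Parental as the control, where the shAjuba2 samples still lay above both Parental samples.

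NRP2 rose in shAjuba1 with a log2 fold change of 0.60 ± 0.09 and an edgeR adjusted p = 0.000294, but shScrambled was itself below Parental and the shAjuba1 samples lay in the range of Parental and Control. Against Parental the value was -0.17 (edgeR adjusted p = 0.188). In shAjuba2 the test gave a log2 fold change of -0.31 ± 0.13 and an edgeR adjusted p = 0.176, and its samples were the lowest of all 16. Against Parental it passed, at -1.08 (edgeR adjusted p = 0.00905). Ajuba OE and Control overlapped, with a log2 fold change of -0.01 ± 0.09 and an edgeR adjusted p = 0.968.

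The 2 shRNA lines differed from each other in 11 of 28 genes, 8 higher and 3 lower in shAjuba1, where 19.6% of all genes were DEG, 9.47% higher and 10.1% lower. SEMA3A, SEMA3C, SEMA3D, SEMA3F, SEMA7A, PLXNA2, PLXNA4 and NRP2 were higher in shAjuba1. SEMA5A, PLXNB3 and NRP1 were higher in shAjuba2. The call of PLXNB3 was lost without any 1 shAjuba1 sample (adjusted p up to 0.0861) and that of SEMA3A without shAjuba1 replicate 1 or 2 (adjusted p up to 0.075). SEMA3D differed most, by 3.27 ± 0.31 on the log2 scale (edgeR adjusted p = 0.000155), then PLXNA2 by 2.33 ± 0.26 (edgeR adjusted p = 0.000356). For NRP1 the difference was -0.89 ± 0.12 (edgeR adjusted p = 0.000857) and for NRP2 0.93 ± 0.12 (edgeR adjusted p = 0.000693), in opposite directions. AJUBA gave -0.26 ± 0.12 (edgeR adjusted p = 0.141) between them.

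The lines without an AJUBA construct also differed from untransduced cells. In shScrambled against Parental, 16 of 28 genes were DEG, 11 higher and 5 lower, where 30.7% of all genes were. Over all genes, 3195 were higher and 3331 lower. SEMA7A was higher by 1.22 ± 0.12 (edgeR adjusted p = 6.78e-08) and PLXNC1, its receptor, by 0.74 ± 0.14 (edgeR adjusted p = 0.000222). SEMA3G was lower by -1.21 ± 0.19 (edgeR adjusted p = 4.28e-05), SEMA5A by -1.05 ± 0.10 (edgeR adjusted p = 9.99e-09) and NRP2 by -0.76 ± 0.09 (edgeR adjusted p = 4.45e-07). This count was 5 when all 16 samples were fitted together, and it also fell without Parental replicate 2 or shScrambled replicate 2. The shares of all genes under these settings are not given here, so this does not tell the family from all genes.

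In Control against Parental 4 of 27 genes were DEG, all lower, where 0.37% of all genes were. Most DEG over all genes were lower too, 69 of 80, with 11 higher. The 4 genes of the family were SEMA3A, SEMA3C, SEMA3D and SEMA5A. SEMA3A gave -1.19 ± 0.13 (edgeR adjusted p = 0.0162) and SEMA5A -0.92 ± 0.12 (edgeR adjusted p = 0.0404). The count was 2 without Control replicate 3, and it also fell without either Parental sample. The shares of all genes under these settings are not given here.

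Set against these lines, the shAjuba1 means of SEMA5A, PLXNB3 and NRP2 lay between shScrambled and Parental. Those of the other DEG of shAjuba1 lay beyond both, and the share of all DEG for which this held was not computed. SEMA3F, SEMA6C, PLXNA1, PLXNA2 and PLXND1 had every shAjuba1 sample outside the range of Parental, shScrambled and Control together, 5 of 15, where 51.9% of all DEG of this comparison did. In shAjuba2 this held for SEMA5A and NRP1, 2 of 8, where it held for 56.1% of all DEG. When the 6 lines were tested together, 19 of the 28 genes differed among them, where 45.7% of all genes did. SEMA5A, SEMA3C, SEMA3A and SEMA3D had the smallest adjusted p-values of this edgeR test, from 2.09e-10 to 8.57e-09. SEMA3B, SEMA4A, SEMA4G, SEMA6B, PLXNA3, PLXNA4, PLXNB1, PLXNB2 and PLXNB3 did not pass it.

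A list of 62 molecules that act with semaphorins, plexins and neuropilins was followed in the same fits. In shAjuba1, 28 of 57 tested were DEG (49.1%, where 38.4% of all genes were), 10 higher and 18 lower. In shAjuba2, 8 of 59 were DEG (13.6%, against 7.63%), 4 in each direction, and in Ajuba OE 6 of 57 (10.5%, against 5.43%), 3 in each direction. By group, with the same shares of all genes as the background, 12 of 21 cytoskeletal effectors and kinases were DEG in shAjuba1, 3 higher and 9 lower, with 3 of 21 in shAjuba2, all lower, and 1 of 21 in Ajuba OE, higher. Of the GTPases and their regulators 7 of 18, 2 of 18 and 3 of 18 were DEG. Of 4 proteases that cut semaphorins, 2 were DEG in shAjuba1, both lower. The number of DEG in shAjuba2 fell without either shScrambled sample, which left a single control sample, and it was 17 without shAjuba2 replicate 2. In Ajuba OE it was 2 without replicate 1 or 3 of either line. The shares of all genes under these settings are not given beside these counts, so they do not tell the listed molecules from all genes.

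PAK1 and LIMK2, kinases that act on the actin cytoskeleton, fell in both knockdown lines. PAK1 was at 3.53 ± 0.09204 RPM for shAjuba1 and 3.47 ± 1.21 RPM for shAjuba2 (SD, n = 3 each) and 8.704 ± 0.284 RPM for shScrambled (SD, n = 2), with log2 fold changes of -1.32 ± 0.12 (edgeR adjusted p = 3.27e-06) and -1.38 ± 0.25 (edgeR adjusted p = 0.0189). LIMK2 gave -0.57 ± 0.09 (edgeR adjusted p = 0.0002945) and -0.58 ± 0.13 (edgeR adjusted p = 0.0365). TIAM1, an activator of Rac, fell in shAjuba1 with a log2 fold change of -1.70 ± 0.09 and an edgeR adjusted p = 3.12e-08 and in shAjuba2 with a log2 fold change of -0.53 ± 0.12 and an edgeR adjusted p = 0.0382. DPYSL3, a collapsin response mediator that links SEMA3A to microtubules, gave -0.74 ± 0.09 (edgeR adjusted p = 4.09e-05) and -0.53 ± 0.13 (edgeR adjusted p = 0.0472, close to the threshold). Its means were 25.3 RPM in Parental, 30.6 in shScrambled, 18.5 in shAjuba1 and 21.9 in shAjuba2. Control and Ajuba OE were lower still, at 13.7 and 15.9 RPM.

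ITGA1, a subunit of a collagen-binding integrin that also binds SEMA7A, moved in opposite directions. It was at 115 ± 9.79 RPM in Control and 45.3 ± 4.11 in Ajuba OE, 34.8 ± 2.68 for shAjuba1 and 274 ± 8.59 for shAjuba2 (SD, n = 3 each), and 94.6 ± 3.08 for shScrambled (SD, n = 2). It fell in shAjuba1 with a log2 fold change of -1.46 ± 0.09 and an edgeR adjusted p = 1.58e-07, rose in shAjuba2 with a log2 fold change of 1.49 ± 0.13 and an edgeR adjusted p = 0.00133 and fell in Ajuba OE with a log2 fold change of -1.29 ± 0.11 and an edgeR adjusted p = 0.000736.

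VEGFA, the growth factor that shares neuropilins with semaphorins, rose in both knockdown lines, with a log2 fold change of 1.17 ± 0.13 and an edgeR adjusted p = 1.71e-05 in shAjuba1 and with a log2 fold change of 0.73 ± 0.18 and an edgeR adjusted p = 0.0495 in shAjuba2. Its means were 16.6 RPM in Parental, 14.2 in shScrambled, 32.3 in shAjuba1 and 24.3 in shAjuba2. Control and Ajuba OE were at 21.1 and 21.4 RPM, and the shAjuba2 samples of VEGFA overlapped those of Control. Its receptor KDR was close to absent, with a highest line mean of 0.0212 RPM. FLT1, another VEGFA receptor of the list that was picked out after its values were seen, was at 4.002 ± 0.582 RPM for shAjuba2 (SD, n = 3) and 2.12 ± 0.299 RPM for shScrambled (SD, n = 2) and rose in shAjuba2 with a log2 fold change of 0.88 ± 0.21 and an edgeR adjusted p = 0.04497.

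MET, the kinase that pairs with PLXNB1, rose in Ajuba OE with a log2 fold change of 0.77 ± 0.11 and an edgeR adjusted p = 0.00681, and also in shAjuba1 with a log2 fold change of 0.57 ± 0.12 and an edgeR adjusted p = 0.00182. ERBB2 passed the test in none of the 3 comparisons, with log2 fold changes of 0.14, 0.19 and 0.19. RND3, a GTPase that binds plexins, rose in shAjuba2 with a log2 fold change of 0.66 ± 0.13 and an edgeR adjusted p = 0.0229 and fell in Ajuba OE with a log2 fold change of -0.90 ± 0.16 and an edgeR adjusted p = 0.0196. FYN, a kinase downstream of plexin A, and SH3BP1, a GTPase-activating protein of Rac that works with PLXND1, rose in Ajuba OE by 0.54 ± 0.09 (edgeR adjusted p = 0.0165) and 0.60 ± 0.12 (edgeR adjusted p = 0.0288). In shAjuba1 SH3BP1 rose too, by 0.58 ± 0.11 (edgeR adjusted p = 0.00125), whereas FYN gave -0.34 ± 0.08 (edgeR adjusted p = 0.00716). MRAS, a GTPase of the Ras family, fell in Ajuba OE with a log2 fold change of -0.57 ± 0.11 and an edgeR adjusted p = 0.0293.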

How the data were processed

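RNA-seq counts of 16 samples from 6 SW480 lines were used. The authors prepared TruSeq Stranded mRNA libraries, sequenced read pairs of 50 bp, aligned them with HISAT2 (hg38) and assigned them to the exons of each gene by featureCounts. The deposited values are raw counts per gene. The strand option, the annotation release and the tool versions are not given in the sources used here. Total counts per sample ran from 30132396 to 69684675, and samples were grouped by the line in their labels.

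Genes, positions and exon lengths were taken from GENCODE release 44, in which 56434 of 66023 identifiers were found. Counts of the 2 lines compared were fitted with edgeR 4.0.16 in R 4.3.3 (filterByExpr by line, TMM, two-sided quasi-likelihood F test, Benjamini-Hochberg adjustment over all genes tested, threshold 0.05). All 6 lines were tested together by the F test of 5 coefficients. Standard errors were obtained as |log2 fold change| / √F. RPM uses the total count, RPKM also the merged exon length. The script was tested on simulated data. DESeq2 1.42.0 and other settings were tried as alternatives. Promoters came from RefSeq.

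The genes, the list of 62 signalling molecules and the marker lists were chosen with earlier results of these data known. Values in every sample are given for SEMA3F, both neuropilins, DEG against an own control and genes with at least 5 RPM in every sample. Signalling molecules are named where DEG in both knockdown lines or in Ajuba OE, with MET, ERBB2, VEGFA and KDR. Neighbouring genes and FLT1 were added after their values were seen.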

Additional observations from a re-analysis of the deposited data

Results flagged for a closer look

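The effects of the 2 shRNAs, measured against the same shScrambled samples, differed for 11 genes in the direct test of shAjuba1 against shAjuba2 (edgeR adjusted p under 0.05). The differences below are log2 values of shAjuba1 minus shAjuba2, each with n = 3 samples per line.

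Among the ligands on chromosome 7 the levels in shAjuba2 were further from shScrambled. SEMA3A differed by 0.64 (edgeR adjusted p = 0.0157), SEMA3C by 2.03 (edgeR adjusted p = 0.000595) and SEMA3D by 3.27 (edgeR adjusted p = 0.000155), and the samples of the 2 lines did not overlap for any of them. The call of SEMA3A was lost without shAjuba1 replicate 1 or 2, with adjusted p of 0.0588 and 0.075.

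SEMA3F, a ligand of NRP2, differed by 2.05 (edgeR adjusted p = 0.000139), with every shAjuba1 sample above every shAjuba2 sample. SEMA7A differed by 1.26 (edgeR adjusted p = 0.0001796) and SEMA5A by -0.97 (edgeR adjusted p = 0.000951), again without overlap.

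Among the receptors, PLXNA2 differed by 2.33 (edgeR adjusted p = 0.000356), PLXNA4 by 1.73 (edgeR adjusted p = 0.0257) at 3 to 19 counts per sample and PLXNB3 by -0.85 (edgeR adjusted p = 0.0234), where replicate 2 of shAjuba2 was the highest sample. The calls of PLXNA4 and PLXNB3 were lost without any 1 shAjuba1 sample, with adjusted p from 0.0712 to 0.0871. The neuropilins differed in opposite directions, NRP1 by -0.89 (edgeR adjusted p = 0.000857) and NRP2 by 0.93 (edgeR adjusted p = 0.000693). No line had 4 or more samples, so single samples were not tested for lying far from the others.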

How the results depend on the processing

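For the genes named in the text, 460 values under an alternative kept their direction and their side of the threshold, 44 lost and 13 gained a call, and 11 changed sign. Of the semaphorins, plexins and neuropilins, 5 were DEG in Ajuba OE with every gene that had at least 1 count, 5 with DESeq2, 6 with all 16 samples in 1 fit and 6 with Parental as the control, against 3. In shScrambled against Parental 5 were DEG with all 16 samples in 1 fit, against 16, and in Control against Parental 8 with every gene, against 4. Of the signalling molecules, 15 were DEG in shAjuba2 with all 16 samples in 1 fit, against 8, and in Ajuba OE 10 with DESeq2, 13 with all 16 samples and 10 with Parental, against 6. The shares of all genes under these settings are not given beside these counts, so they do not tell the family from all genes. The cause was not tested.

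With Parental as the control SEMA5A turned to -0.51, PLXNB3 to 0.26 and NRP2 to -0.17 in shAjuba1, and SEMA7A to 0.16 in shAjuba2. NRP1 in shAjuba1, at -0.07, was 0.021 without shScrambled replicate 1 and -0.15 without shScrambled replicate 2, and it passed the test at -0.41 with Parental as the control. NRP2 in shAjuba2 passed there too, at -1.08. NRP2 in Ajuba OE, at -0.01, was 0.0077 with DESeq2 size factors, 0.016 with every gene, 0.029 with DESeq2, 0.0063 with all 16 samples, 0.028 without Control replicate 1, -0.051 without Control replicate 2 and 0.026 without Ajuba OE replicate 2.

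Leaving out single replicates gave 13 to 17 DEG of the family in shAjuba1, 3 to 13 in shAjuba2, 2 to 3 in Ajuba OE, 8 to 15 between the shRNA lines, 9 to 15 in shScrambled, 2 to 6 in Control and 17 to 25 among the 6 lines, where 25 is without replicate 2 of 3 lines together. For the signalling molecules it gave 20 to 32, 1 to 17 and 2 to 7. A line left with 1 sample is assumed to vary like the other line. The shares of all genes are not given beside these ranges, so they do not tell the listed genes from all genes.

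Same-numbered samples are linked in the labels by their number alone. Their deviations from the line means correlated between -0.13 and 0.50. In Ajuba OE against Control the correlations were 0.099, 0.50 and -0.049 for replicates 1, 2 and 3. Replicate 2 was thus shifted in part alike in these lines, which the main tests did not take into account. Under a replicate block, 16 genes of the family and 22 signalling molecules were DEG in shAjuba2, where 5377 of 22446 genes were, and 9 and 19 in Ajuba OE, where 5140 of 21140 genes were, against 1713 and 1147 without it. The other counts stayed within 1.5 times. Depth limits SEMA3C and SEMA3D in Ajuba OE and SEMA3E, SEMA5B and SEMA6D in all lines.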
